A study of Mus musculus with 4 samples.

Results

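Microglia rich in ribosomal protein transcripts were defined in 4 single-cell RNA sequencing libraries as cells in which genes with symbols of the form Rpl or Rps followed by a number took at least 12% of all UMIs (unique molecular identifiers, each standing for 1 captured transcript). The cells also had at least 400 detected genes, at most 10% mitochondrial UMIs and fewer than 10 UMIs in all of the MHC class II genes Cd74, H2-Aa, H2-Ab1 and H2-Eb1. Of 13002 kept cells, 394 met the rule and are called ribosome-rich here. Each library came from 1 male C57BL/6J mouse aged P90 that had received PBS by tail vein, and all 4 formed 1 group (cold Dounce, PBS). The labels put the injection 24 hours before sacrifice, while the study's methods give another interval. Cortex and hippocampus were dissociated mechanically on ice, without enzymes, and live CD45+/CD11b+ cells were sorted, a gate that also takes in monocytes and border macrophages. The study's methods describe an interrupted sort, with added time at room temperature, for the final mouse of this dataset.

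Ribosomal proteins are the structural proteins of the ribosome, and their mRNAs are among the most abundant in any cell. Most of these mRNAs, together with those of several elongation factors, begin with a run of pyrimidines, the terminal oligopyrimidine tract, through which mTOR signalling sets their translation and stability as a group. Microglia are the resident macrophages of the brain parenchyma and are recognised by genes such as P2ry12, Tmem119 and Fcrls. H2-D1 and H2-K1 encode the classical heavy chains of MHC class I, Tmem176a a membrane protein of endosomal compartments, and Emp3 a tetraspan membrane protein. These 4 genes were the markers given for these cells, chosen with results of these data in view.

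The ribosomal share formed a continuous distribution, and no gap set the ribosome-rich cells apart. The median share of all kept cells was 8.27%, 7.91%, 7.32% and 7.03% in replicates 1 to 4. Just below the threshold, 410 cells lay between 11% and 12%, and just above it 201 of the 394 members lay between 12% and 13%. Only 63 members reached 15%, and the highest share was 28.8%. At the median depth of the members, the exact 95% interval of a cell measured at 12% ran from 10.6% to 13.5% in replicate 1 and from 10.9% to 13.2% in replicate 2, so cells near the threshold could not be placed on either side with confidence.

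**Figure D1:**
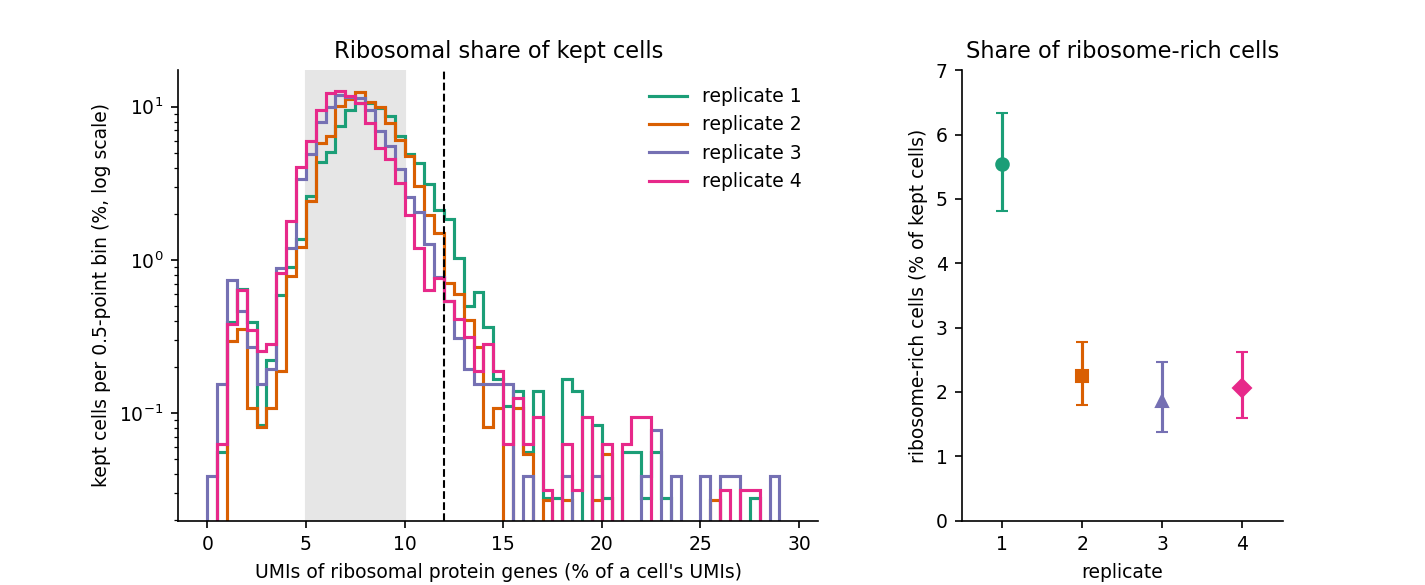
Left, the percentage of kept cells (log scale) in bins of the ribosomal share of a cell's UMIs (x axis, %), with 1 line per library, the comparison range of 5% to 10% in grey and the threshold of 12% dashed. Right, ribosome-rich cells as a percentage of kept cells in each library with exact 95% intervals, where replicate 1, at 5.54%, lies above the other three.

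Ribosome-rich cells made up 5.54% of kept cells in replicate 1 (198 of 3576, exact Clopper-Pearson 95% interval 4.81% to 6.34%). The other libraries held 2.25% (83 of 3692, 1.79% to 2.78%), 1.86% (48 of 2576, 1.38% to 2.46%) and 2.06% (65 of 3158, 1.59% to 2.62%). The mean was 2.93% ± 1.75 (SD, n = 4), and replicate 1 stood above the other libraries by more than their whole spread. Replicate 1 also had the lowest median depth (1905 UMIs per kept cell against 2197 to 2936) and the highest median ribosomal share, and the part of either in its larger share of members was not tested. A further 51 cells reached 12% but carried 10 or more class II UMIs and were not members.

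The members were then compared with kept cells whose ribosomal share was 5% to 10%, 1 such cell of the same library for each member, matched on UMIs outside the ribosomal genes. The cells of a pair differed by at most 98 such UMIs. UMIs were summed per library and class, and levels are given as CPM, counts per 1000000 UMIs outside the ribosomal pattern and the 4 class II genes. Each class therefore had 4 values, 1 per mouse, and every gene was tested with edgeR's quasi-likelihood test with the library as a block.

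Most members carried the microglial profile, but a minority did not. Among the members, 36 of 394 had at least 2 UMIs of monocyte or border-associated macrophage markers, compared with 2 of the 394 matched cells. The share of microglial identity genes was taken over UMIs outside the ribosomal pattern. Its median was 1.38% in these 36 cells, against 8.49% in the other 358 members and 9.26% in the matched cells. The median ribosomal share of the 36 cells was 18.4%, while that of the other members was 12.9%. None of the other 358 members fell below an identity share of 4%, whereas 25 of the 36 did. Of all kept cells under the class II limit, 36 of the 144 with markers reached 12% (25.0%), compared with 358 of 12791 without them (2.80%). The label held for the 358 cells, and the counts and the main genes below are given with and without the marker-bearing cells. That division was made after the data had been seen.

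The marker-bearing members were mostly of the monocyte kind, with more UMIs of the monocyte list in 27 cells and of the border-associated macrophage list in 8. Plac8, Pf4, Chil3 and the whole monocyte list were part of the definition of marker-bearing cells. Few of their UMIs could therefore remain in the other 358 members, and their contrasts between the 36 and the 358 cells describe the division only. Plac8, a gene of circulating myeloid cells, had 172 UMIs in these 36 cells and 2 in the other 358. Pf4, a chemokine gene expressed by border macrophages, had 174 and 2, and Chil3, a chitinase-like gene of classical monocytes, had 111 UMIs in 5 cells and none in the others (a count of 0 allows up to 3). Tmem119 showed the opposite, at 547 CPM in the marker-bearing cells and 2533 CPM in the other members. The summed level of the monocyte list was 343 to 1424 CPM in the members of the 4 libraries and 9.26 to 18.0 CPM in the matched cells, and 11.6 to 42.5 CPM once the marker-bearing cells were left out. Of the lists for other cells of the blood, all members together held 1 UMI of the neutrophil list, 4 of the T and NK cell list and 0 of the erythroid list. The B cell list held 367 UMIs in members and 332 in matched cells, nearly all of them of Ighm (316 and 277 UMIs), the heavy chain of IgM, and Cd79b (42 and 49), a subunit of the B cell receptor. Neither differed between the classes by the test used below (log2 fold changes 0.22 ± 0.13 and -0.17 ± 0.33, adjusted p = 0.41 and 0.88, edgeR). The dendritic cell list held 1295 and 1470 UMIs. Of its 2 tested genes, Naaa, a lysosomal amidase, was higher with and without the marker-bearing cells (1.13 and 0.97), and Siglech, which microglia also express, did not pass (-0.24 and -0.15). Naaa passed the UMI filter only through the members, where it is high, so its change is a description only.

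The terminal oligopyrimidine tract can be looked for in the annotated start of a gene. The windows below show 15 bases before and 15 bases from the start, on the transcribed strand, for ribosomal proteins that the rule did not count, for translation factors, and for 3 genes of other kinds. Sequences are RefSeq promoters on GRCm38.p6, capitals mark a C followed by at least 6 unbroken C or T, and Gnb2l1 is listed there as Rack1.

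Fau, chr19:6057932-6057961, plus strand: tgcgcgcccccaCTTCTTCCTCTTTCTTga
Gnb2l1, chr11:48800345-48800374, plus strand: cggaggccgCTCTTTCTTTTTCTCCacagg
Rplp2, chr7:141447636-141447665, plus strand: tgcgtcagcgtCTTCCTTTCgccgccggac
Rplp0, chr5:115559452-115559481, plus strand: gtcttcgggtttcgaggaccgcctggttct
Rpsa, chr9:120127751-120127780, plus strand: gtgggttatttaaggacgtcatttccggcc
Eif3f, chr7:108934400-108934429, plus strand: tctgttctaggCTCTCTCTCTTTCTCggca
Eef1a1, chr9:78481710-78481739, minus strand: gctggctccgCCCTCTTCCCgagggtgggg
Tpt1, chr14:75845241-75845270, plus strand: gtcaccgctgacgacagttccgggggagcc
Eef1b2, chr1:63176816-63176845, plus strand: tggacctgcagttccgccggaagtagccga
Eif1, chr11:100319934-100319963, plus strand: gcgctggcgtcacaggggcggctatataag
H2-D1, chr17:35263079-35263108, plus strand: cgcaacccgcgggactcagacacccgggat
P2ry12, chr3:59262971-59263000, minus strand: gctagtatgtctttagtccttagcgcagtc

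Fau, Gnb2l1, Rplp2, Eif3f and Eef1a1 held the run across or beside the annotated start, and the windows of Rplp0, Rpsa, Tpt1 and Eef1b2 did not hold these letters. Over the promoter table as a whole, 14.05% of 27025 genes held the run in this window, and 15.3% held it on the opposite strand. Among the genes that the rule counted and that had at least 100 UMIs, 27 of the 62 with a promoter entry held it (43.5%) and 3 held it on the opposite strand (4.84%). Among the listed oligopyrimidine and elongation genes tested below, 4 of the 11 with a promoter entry held it (36.4%), the same number as on the opposite strand. Among the genes called higher below, the run was present in 26 of 120 (21.7%) for all members and in 17 of 54 (31.5%) without the marker-bearing cells, against 350 of 2591 of all genes tested (13.5%). Among genes called lower it was present in 6 of 56 (10.7%). The window follows 1 annotated start per gene, the first listed, and a match is a description of these letters only.

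Across 3309 genes tested, 175 were higher in ribosome-rich cells (5.29%) and 71 were lower (2.15%) at an adjusted p under 0.05 (edgeR's quasi-likelihood test with Benjamini-Hochberg adjustment). Without the marker-bearing cells, 3040 genes were tested, of which 91 were higher (2.99%) and 27 were lower (0.888%). These percentages are the background for the counts given for each list below. Of the 175 higher genes, 88 were also called without those cells and 24 had too few UMIs to be tested there. Of the 71 lower genes, 27 were also called. Scaling by the total alone, in place of TMM factors, gave 162 higher and 123 lower genes, and DESeq2 gave 59 and 6, so the number of lower genes in particular depended on the method. Without replicate 1, which held 198 of the 394 members, 111 genes were higher and 35 lower.

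Ribosomal proteins that the rule did not count rose together. All 6 of those described here were higher, with a median log2 fold change of 0.94 beside -0.02 over all genes tested, and all 6 were also higher without the marker-bearing cells (median 0.86). Fau, which encodes ribosomal protein S30 as a fusion with a ubiquitin-like protein, stood at 3418, 3566, 3865 and 3743 CPM in the ribosome-rich cells of replicates 1 to 4 and at 1897, 2075, 2024 and 1739 CPM in the matched cells. The classes did not overlap, and the log2 fold change was 0.95 ± 0.09 (SE, adjusted p = 3.3e-22, edgeR) with all members and 0.85 ± 0.08 (adjusted p = 8.2e-17) without marker-bearing cells. Rplp0, the stalk protein P0, was at 2201 to 2586 CPM against 1133 to 1315 CPM, a log2 fold change of 0.96 ± 0.09, and 0.94 ± 0.08 without the marker-bearing cells. Rpsa, a protein of the small subunit, showed the largest rise of the 6, from 320 to 436 CPM in matched cells to 755 to 969 CPM (log2 fold change 1.08 ± 0.11, and 1.03 ± 0.12 without the marker-bearing cells). Rplp1 showed the smallest, at 0.74 ± 0.09 and 0.75 ± 0.08. Rplp2 and Gnb2l1, which encodes the scaffold protein Rack1 of the small subunit, lay between them at 0.92 and 0.91 with all members, and all 6 were higher in 4 of 4 libraries.

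Genes of the oligopyrimidine and elongation list, which are not all translation factors, mostly moved with them. Of its 17 tested genes, listed for a known or probable oligopyrimidine tract, 13 were higher and none lower (median log2 fold change 0.72). Without the marker-bearing cells 12 of 17 were higher (0.71). Eef1a1, the elongation factor that brings aminoacyl-tRNA to the ribosome, was at 3688, 3585, 4087 and 3635 CPM against 2041, 2213, 2014 and 2086 CPM (log2 fold change 0.87 ± 0.09, adjusted p = 2.1e-19, edgeR). Its level without the marker-bearing cells was nearly the same, with a log2 fold change of 0.87 ± 0.08. Tpt1, the translationally controlled tumour protein, rose by 0.91 ± 0.10 (0.82 ± 0.09 without the marker-bearing cells), and the initiation factor subunit Eif3f by 0.97 ± 0.13 (0.92 ± 0.13). Eif4b had the largest log2 fold change of the list, 1.25 (1.23 without those cells), while Eif3l, at -0.36, and Hnrnpa1, at -0.07, did not pass the test.

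The remaining translation machinery did not follow. Of 29 initiation and elongation factors outside that list, 2 were higher and none lower, with a median log2 fold change of -0.01. The 2 were Eif1, which selects the start codon (0.32 ± 0.09, adjusted p = 0.016, edgeR), and Eif3k (0.47 ± 0.15, adjusted p = 0.030), and neither passed without the marker-bearing cells. Of 16 tested genes for ribosome biogenesis, the assembly of subunits in the nucleolus, 1 was higher, Nop10 (0.61 ± 0.18), and the median was -0.03. Without the marker-bearing cells Nop10 lost its call (0.51 ± 0.20, adjusted p = 0.16, edgeR), none of 15 biogenesis genes was called and their median was 0.07. Of 41 mitochondrial ribosomal proteins, which belong to the separate ribosome of the mitochondrion, 2 were higher and the median was 0.07, and without the marker-bearing cells 1 of 38 was higher (median 0.08). Mrpl52 was the member that passed in both fits (0.64 ± 0.14 with all members, 0.66 ± 0.15 without the marker-bearing cells).

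**Figure D2:**
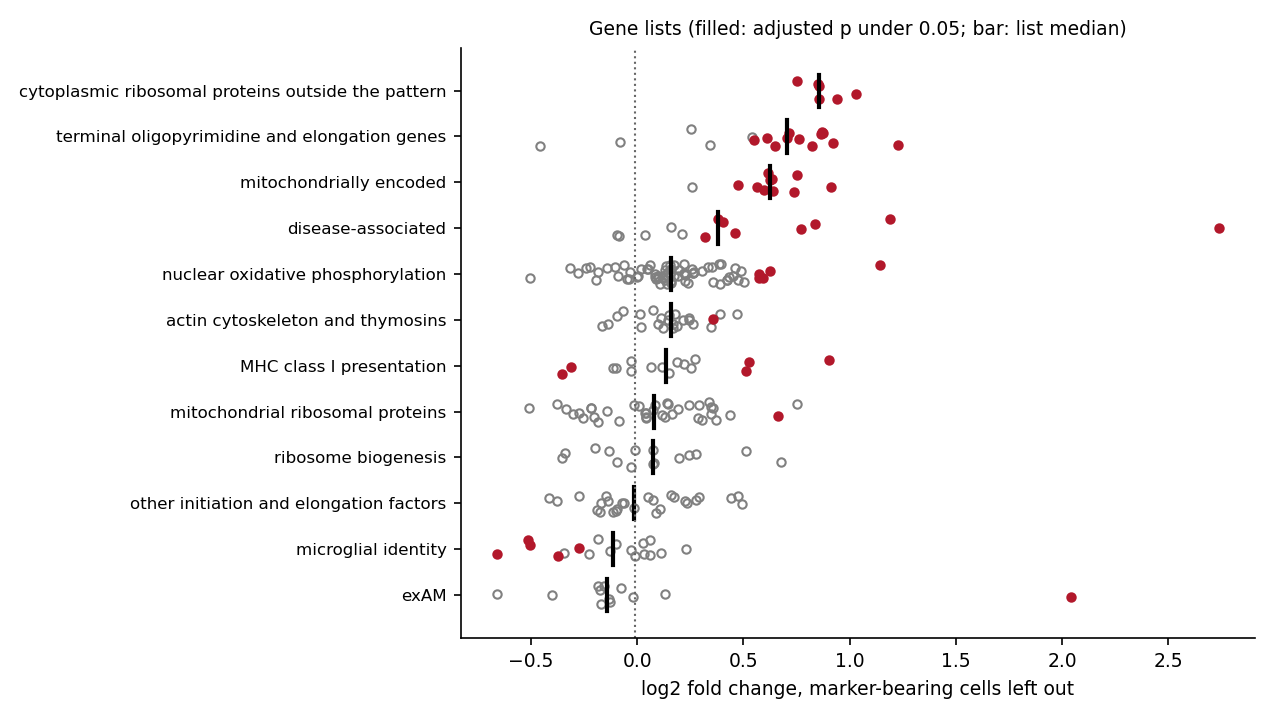
Log2 fold change of ribosome-rich over matched comparison cells (x axis) for each tested gene of 12 lists, with marker-bearing cells left out. Filled points passed an adjusted p of 0.05, black bars are list medians and the dotted line is the median of all genes. Ribosomal proteins outside the pattern (median 0.86) and oligopyrimidine genes (0.71) lie to the right, while other initiation factors, ribosome biogenesis genes and mitochondrial ribosomal proteins centre near 0.

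The 4 given markers, chosen with results of these data in view, were higher with and without the marker-bearing cells. H2-D1 (chr17:35262730-35267499, plus strand, GRCm38) was at 1672, 1278, 1889 and 1470 CPM in ribosome-rich cells and at 770, 625, 736 and 725 CPM in matched cells. All member values lay above all comparison values, and the log2 fold change was 1.16 ± 0.10 (adjusted p = 8.5e-25, edgeR). Without the marker-bearing cells it was 0.91 ± 0.10 (adjusted p = 3.5e-13), with member values of 1067 to 1556 CPM. H2-K1 (chr17:33996017-34000347, minus strand) was at 706, 491, 542 and 486 CPM against 408, 292, 349 and 324 CPM. Its log2 fold change of 0.76 ± 0.12 fell to 0.53 ± 0.13 (adjusted p = 0.0025, edgeR) without the marker-bearing cells and did not pass there with DESeq2 (adjusted p = 0.23) or without replicate 1 (adjusted p = 0.21). H2-D1 and H2-K1 are close paralogs, and reads from a shared stretch cannot always be assigned to 1 of them.

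Tmem176a (chr6:48840919-48847071, plus strand) was at 610, 644, 649 and 654 CPM in ribosome-rich cells and at 453, 519, 426 and 378 CPM in matched cells. The log2 fold change was 0.53 ± 0.11 (adjusted p = 8.8e-05, edgeR) with all members and 0.63 ± 0.11 (adjusted p = 1.4e-05) without marker-bearing cells. DESeq2 gave an adjusted p of 0.14 for all members. Its neighbour Tmem176b, which overlaps it at the start on the other strand and encodes a related protein, was higher to a like degree (0.58 ± 0.10 and 0.68 ± 0.10). Emp3 (chr7:45918023-45921404, minus strand) was a low gene, at 115, 139, 242 and 180 CPM against 47.8, 32.4, 29.1 and 60.0 CPM, or 126 against 37 UMIs in all. Emp3 passed the UMI filter only through the members, where it is high, so its tests are a description only. Its log2 fold change of 1.80 ± 0.26 became 1.12 ± 0.29 (adjusted p = 0.0071, edgeR) without the marker-bearing cells, where 10 cells carried 37.5% of its UMIs. In that setting it missed the threshold without replicate 3 (adjusted p = 0.069) and without replicate 4 (adjusted p = 0.071).

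Within the MHC class I pathway the change was uneven. Of 17 tested genes, 3 were higher, 2 were lower and the median log2 fold change was 0.16, and without the marker-bearing cells 3 of 16 were higher and 2 lower (0.13). B2m, the invariant light chain of class I, was at 5568, 4724, 5395 and 4924 CPM against 3904, 3603, 3564 and 3411 CPM (log2 fold change 0.54 ± 0.08, adjusted p = 6.5e-09, edgeR), and at 0.51 ± 0.07 without the marker-bearing cells. The peptide transporter genes Tap1 (0.33) and Tap2 (-0.14) and the immunoproteasome subunits Psmb8 (0.22) and Psmb9 (0.16) did not pass. The 2 lower genes were Calr (-0.39 ± 0.10, and -0.35 ± 0.10 without the marker-bearing cells) and Pdia3 (-0.33 and -0.31), chaperones of the endoplasmic reticulum that assist the loading of class I but also fold other proteins. Of the class II genes outside the rule, none of 3 tested passed, with log2 fold changes from -0.05 to 0.03. The interferon-responsive list of 26 genes had 3 higher genes of 6 tested, Ifitm3, Ifi27l2a and Slfn2 (median 0.82). Ifitm3 (380 against 28 UMIs) and Ifi27l2a (119 against 24) passed the UMI filter only through the members, where they are high. The count and the median of this list therefore reflect the filter in part. None of the 3 genes that could be tested without the marker-bearing cells passed.

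**Figure D3:**
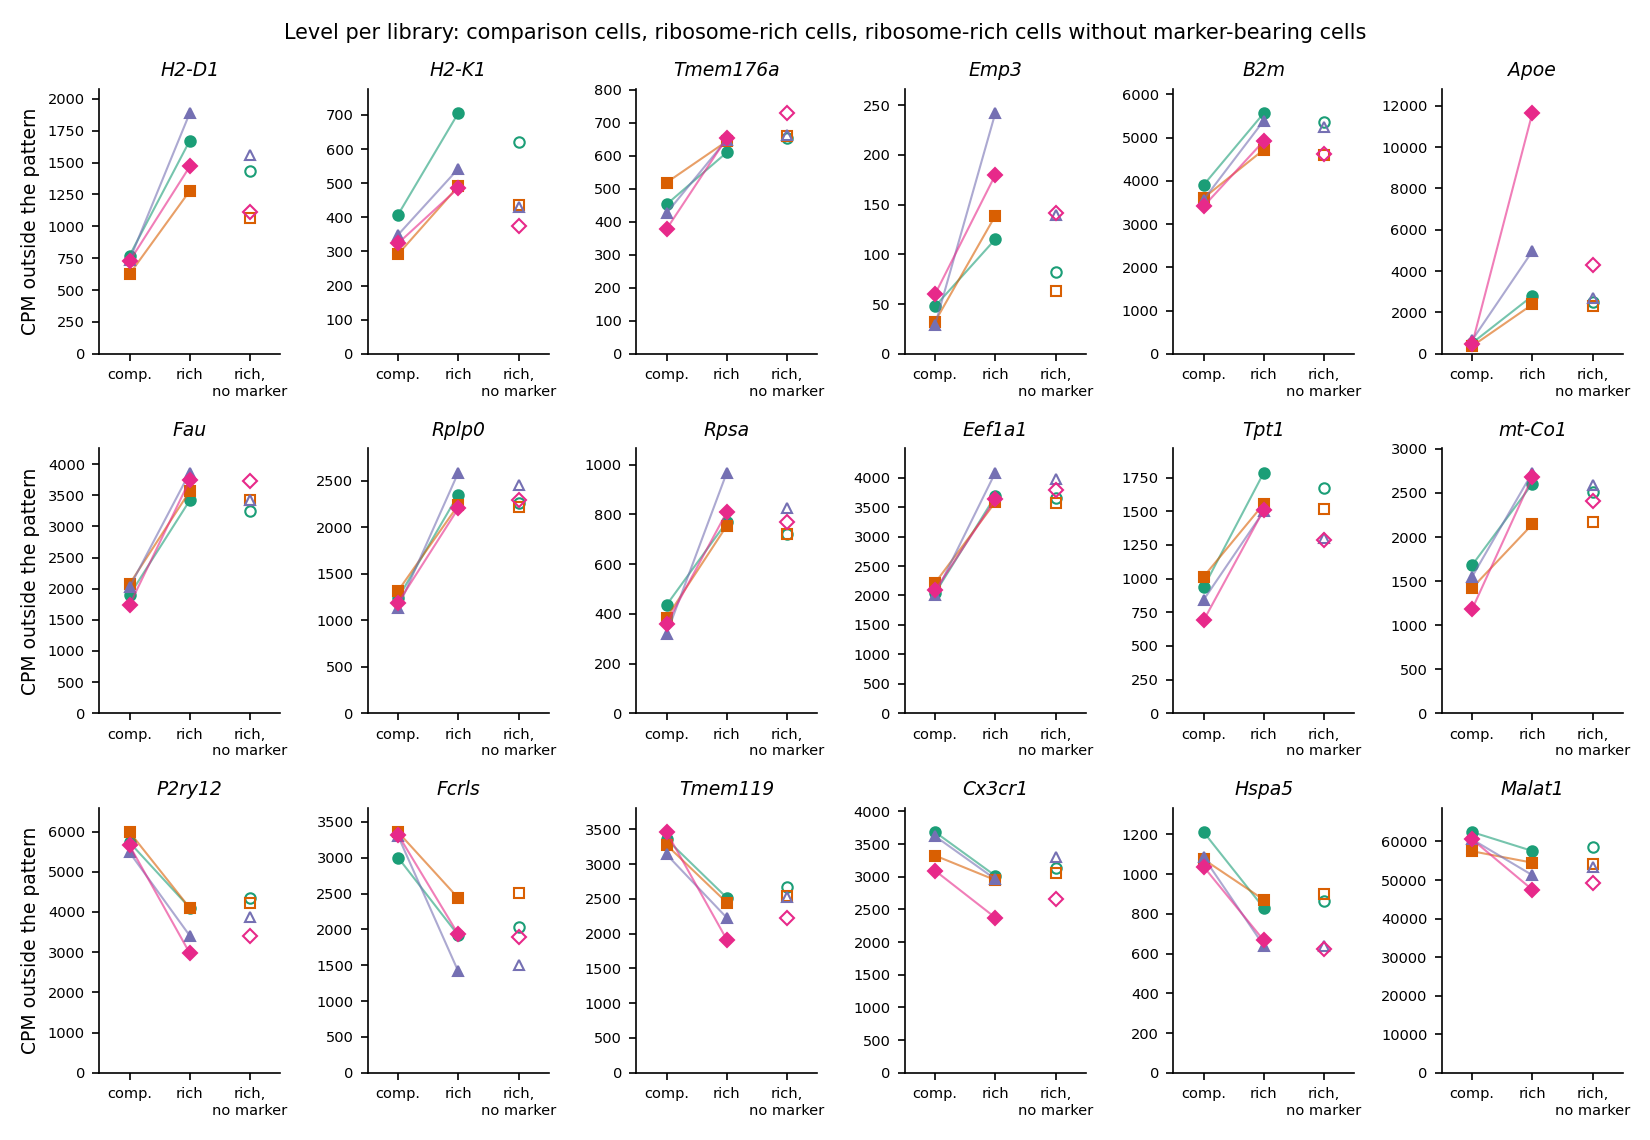
CPM outside the ribosomal pattern (y axes, from 0) for 18 genes in matched comparison cells, all ribosome-rich cells (both filled and joined by library) and ribosome-rich cells without marker-bearing cells (open), with 1 colour and symbol per library (circle, square, triangle and diamond for replicates 1 to 4). H2-D1, Fau and Eef1a1 are higher in every library with or without those cells, Apoe in replicate 4 falls from 11642 to 4290 CPM when they are left out, and P2ry12 is lower in every library.

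The largest differences lay in genes that the marker-bearing cells also express highly. The 10 genes with a larger fitted log2 fold change than Apoe had too few UMIs to be tested without those cells. Chil3, Plac8 and Pf4, described above, were among them, as were Lgals3, which encodes galectin-3 (108 UMIs in all members, 3 of them outside the marker-bearing cells, and 2 in matched cells), and the interferon-induced membrane protein genes Ifitm3 (380, 39 and 28) and Ifitm2 (174, 9 and 3), the last named after its values had been seen. All of these named genes passed the UMI filter only through the members, where they are high, so the size of their changes is a description only. Of the genes tested in both fits, Apoe had the largest log2 fold change. Apoe, the apolipoprotein of macrophages and astrocytes that microglia raise in disease, was at 2797, 2385, 4959 and 11642 CPM in ribosome-rich cells and at 517, 370, 659 and 474 CPM in matched cells. Its log2 fold change was 3.20 ± 0.11 (adjusted p = 4.6e-99, edgeR), and 2.74 ± 0.11 (adjusted p = 3.6e-46) without the marker-bearing cells, where members stood at 2488, 2318, 2717 and 4290 CPM. In those 358 cells, however, 10 cells carried 54.6% of the Apoe UMIs, and the highest single cell had 222. Lyz2, the macrophage lysozyme, had a log2 fold change of 2.88 ± 0.11 with all members and 1.19 ± 0.12 without the marker-bearing cells, and its level in the marker-bearing cells was 24618 CPM against 960 CPM in the other members. Tmsb10, which encodes an actin-binding thymosin, moved from 1.46 ± 0.13 to 0.47 and Gpx1, a glutathione peroxidase, from 1.03 ± 0.13 to 0.43, and neither passed without those cells (adjusted p = 0.072 and 0.11, edgeR). Klf2, a transcription factor of quiescent endothelial and immune cells, had a log2 fold change of 2.66 ± 0.22 and 2.04 ± 0.30. It too passed the UMI filter only through the members, where it is high. Without the marker-bearing cells, members stood at 39.7 CPM for Klf2 in replicate 1, the same value as its matched cells, and at 53.3, 325 and 467 CPM in the other libraries, and 10 cells carried 49.2% of its UMIs.

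**Figure D4:**
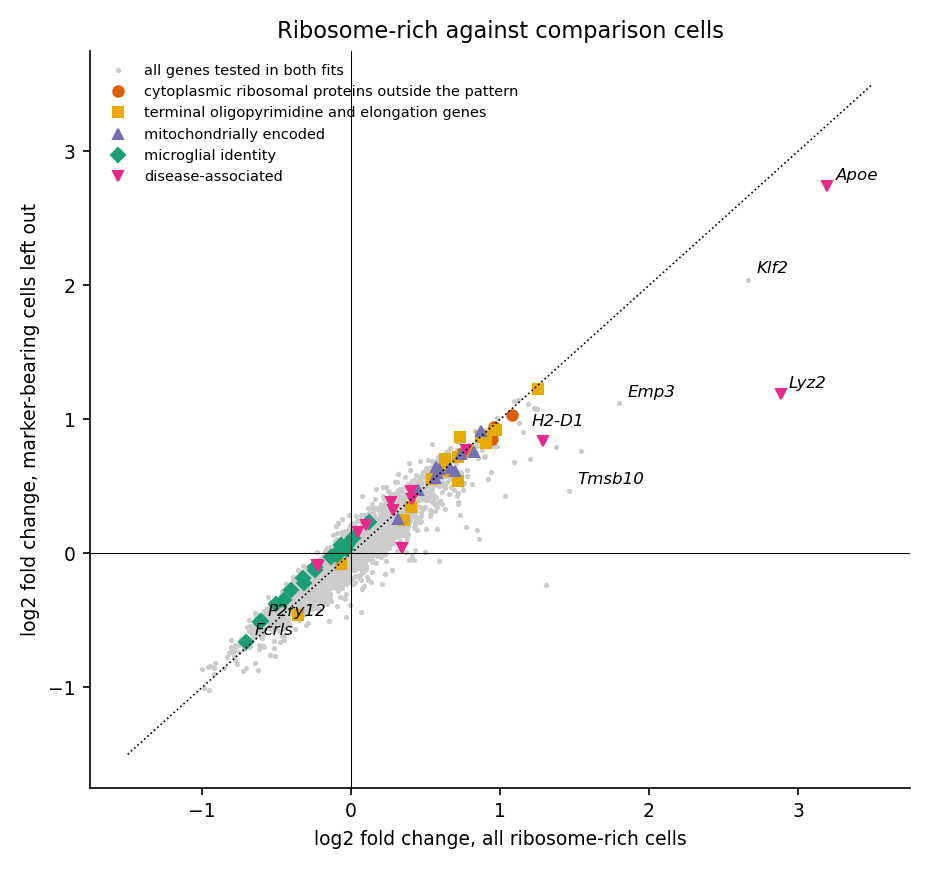
Log2 fold change of each gene with all ribosome-rich cells (x axis) against that with marker-bearing cells left out (y axis), with 5 lists in colour and the line of equality dotted. Ribosomal, oligopyrimidine and mitochondrially encoded genes lie near the line and most identity genes a little above it (P2ry12 at -0.61 and -0.51), whereas Lyz2 (2.88 and 1.19) and Tmsb10 (1.46 and 0.47) lie well below it.

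Genes of the disease-associated microglial state were partly higher. Of 24 listed genes 14 were tested, of which 8 were higher and 1 was lower (median log2 fold change 0.37). Among the higher genes, Lgals3 passed the UMI filter only through the members, so this count and median reflect the filter in part. Without the marker-bearing cells, where Lgals3 was not tested, 8 of 13 were higher and none lower (0.38). Cd52, a small surface glycoprotein, was at 616, 491, 659 and 498 CPM against 287, 218, 194 and 198 CPM (1.28 ± 0.13), and at 0.84 ± 0.15 without the marker-bearing cells. The ferritin heavy chain Fth1 (0.77 in both fits), the signalling adaptor Tyrobp (0.41 in both) and the tetraspanin Cd63 (0.40 and 0.46) were also higher. The lysosomal aspartic protease Ctsd was lower with all members (-0.22) and was at -0.10, below the threshold for a call, without the marker-bearing cells. Ctss, a lysosomal cysteine protease that is one of the most abundant microglial mRNAs, was higher by 0.33 ± 0.07 and 0.46 ± 0.06; it was named after its values had been seen. Among actin genes and thymosins, 7 of 24 were higher with all members and only Tmsb4x without the marker-bearing cells (0.41 ± 0.07 and 0.36).

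Transcripts of the mitochondrial genome were higher as a group. Of 12 tested, 10 were higher and none lower (median log2 fold change 0.60), as were 10 of 11 without the marker-bearing cells (0.63). The median mitochondrial share per cell was 1.57% to 1.85% in members of the 4 libraries and 1.08% to 1.33% in matched cells. mt-Co1, a catalytic subunit of cytochrome c oxidase, was at 2606, 2144, 2731 and 2681 CPM against 1681, 1422, 1549 and 1181 CPM (0.82 ± 0.09, adjusted p = 1.1e-15, edgeR), and at 0.75 ± 0.08 without the marker-bearing cells. Nuclear genes of oxidative phosphorylation showed a smaller shift. With all members 13 of 73 were higher and none lower (median 0.19), beside 5.29% higher over all genes tested. Without the marker-bearing cells 5 of 73 of these nuclear genes were higher (0.16), beside 2.99%. Uqcrh, a hinge protein of complex III, led them at 1.12 ± 0.14, followed by Cox7a2l (0.67 ± 0.12), Cox4i1 (0.65 ± 0.10) and Cox8a (0.63 ± 0.11), and all 4 were called in both fits. Mitochondrial share is also used as a measure of cell quality, and its part in these differences was not tested. Limiting cells to 5% mitochondrial UMIs gave 178 higher and 72 lower genes. That limit left 63 of 65 members in replicate 4 and every member of the other libraries, so it could change little.

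Part of the microglial identity list was lower in ribosome-rich cells. Of 18 tested, 9 were lower and none higher (median log2 fold change -0.24). Without the marker-bearing cells 5 of 18 were lower and none higher (median -0.11), and 6 had a positive log2 fold change, the highest 0.23. P2ry12, the purinergic receptor that directs process extension, was at 4104, 4099, 3409 and 2975 CPM in members and at 5731, 5987, 5481 and 5654 CPM in matched cells (-0.61 ± 0.08, adjusted p = 2.2e-11, edgeR). Without the marker-bearing cells it was at 4351, 4229, 3866 and 3398 CPM, still below every comparison value, with a log2 fold change of -0.51 ± 0.07 (adjusted p = 2.9e-09). Fcrls, an Fc receptor-like scavenger receptor, was lower by a similar amount in both fits (-0.70 ± 0.09 and -0.66 ± 0.08), as was P2ry13 (-0.61 and -0.50). Tmem119, a transmembrane protein used as a microglial marker, was at 1913 to 2516 CPM against 3138 to 3459 CPM (-0.50 ± 0.09 and -0.37 ± 0.08). Sparc was the fifth gene called in both. The complement genes C1qa, C1qb and C1qc and the receptor gene Csf1r had log2 fold changes from -0.14 to 0.01 and did not pass, and neither did Cx3cr1 (-0.24 ± 0.08, adjusted p = 0.052, edgeR, and -0.13 ± 0.07 without the marker-bearing cells).

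Other genes that fell included the fructose transporter gene Slc2a5 (-0.64 ± 0.11 and -0.55 without the marker-bearing cells), Ecscr (-0.66 ± 0.12 and -0.56), Susd3 (-0.55 ± 0.11 and -0.48) and the tubulin gene Tuba1a (-0.56 ± 0.14 and -0.51). Hspa5, the main chaperone of the endoplasmic reticulum, was at 829, 871, 639 and 666 CPM against 1211, 1074, 1085 and 1037 CPM (-0.50 ± 0.10, adjusted p = 4.3e-05, edgeR), and at -0.41 ± 0.10 (adjusted p = 0.0021) without the marker-bearing cells. It and its cofactor Sdf2l1 (-0.52 ± 0.13 and -0.46 ± 0.14) were singled out after their values had been seen, and with DESeq2 neither passed (adjusted p = 0.079 for Hspa5). Malat1, an abundant RNA retained in the nucleus, was at 47486 to 57534 CPM against 57461 to 62433 CPM, lower in 4 of 4 libraries without passing the test (-0.16 ± 0.07, adjusted p = 0.13, edgeR, and -0.13 ± 0.05, adjusted p = 0.16, without the marker-bearing cells).

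The list of ex vivo activated microglia (exAM), which the study derived from other mice, did not separate the classes. Of 13 tested genes, Klf2 and Fos were higher, Rhob was lower and the median log2 fold change was -0.14. Klf2 and Fos passed the UMI filter only through the members, where they are high, so their calls are a description only. Without the marker-bearing cells only Klf2 of 12 was called (median -0.14), and Rhob, a small GTPase gene, moved from -0.31 ± 0.11 to -0.17 ± 0.11 (adjusted p = 0.55, edgeR). Fos, an immediate early transcription factor, had a log2 fold change of 1.09 ± 0.34 and too few UMIs to be tested without the marker-bearing cells. Its UMIs came mainly from replicate 4, with 43 of 63 in members and 20 of 30 in matched cells. Replicate 2 held 6 in each class. The summed level of the list was 2887, 3131, 2925 and 5230 CPM in members and 3005, 3126, 3089 and 5306 CPM in matched cells. Replicate 4 thus stood above the other libraries in both classes, and without it 127 genes were higher and 34 lower between the classes. The study reported cells with this signature almost only in the final mouse, whose sort was interrupted. The study's supplement calls that mouse Sample 4. The labels do not say which library came from it, or whether that number is replicate 4 here.

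Levels were also followed along the ribosomal share, without a threshold. For this, all kept cells under the class II limit and without the markers were divided by share, from under 5% (744 cells) and 5% to 7.5% (5184 cells) up to 12% to 14% (279 cells) and 14% or more (79 cells), with no matching of depth. The summed level of these 6 ribosomal proteins outside the pattern was 5895 ± 273 CPM at 5% to 7.5% and 14873 ± 1365 CPM at 14% or more (SD, n = 4), and from 5% upwards it rose at each step in 4 of 4 libraries. The oligopyrimidine genes also rose at each step in every library, from 6064 ± 189 to 12599 ± 377 CPM. H2-D1 rose from 586 ± 78.5 to 1691 ± 360 CPM, at each step in 3 of 4 libraries, and B2m from 3372 ± 93.7 to 5783 ± 1059 CPM, at each step in all 4. Of the other given markers, Tmem176a rose at each step in 3 of 4 libraries, but H2-K1 and Emp3 in only 1 of 4 each. H2-K1 was at 320 ± 51.1 CPM at 5% to 7.5% and 472 ± 151 CPM at 14% or more. Emp3 was at 112 ± 53.5 CPM at 12% to 14% and 90.4 ± 57.7 CPM above it. P2ry12 fell from 6462 ± 156 to 3298 ± 634 CPM, at each step in all 4. Below 5% the order was not the same for every gene. H2-D1 was at 612 ± 92.3 CPM there and was lower at 5% to 7.5% in 3 of 4 libraries, and B2m, at 3214 ± 261 CPM, was lower at 5% to 7.5% in 1. From that bin the ribosomal proteins outside the pattern and the oligopyrimidine genes also rose in 4 of 4 libraries, and P2ry12 also fell.

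Not every list was graded in this way. Mitochondrial ribosomal proteins were at 4730 ± 95.3 CPM at 5% to 7.5% and 4967 ± 391 CPM at 14% or more. The mitochondrially encoded genes increased up to 12% to 14% (20528 ± 1628 CPM) and were at 19454 ± 1784 CPM above it. Apoe was at 824 ± 228 CPM at 10% to 12%, and at 14% or more its libraries ranged from 1107 to 8419 CPM, the lowest in replicate 2. On either side of the threshold, between 11% and 12% and between 12% and 13%, Fau was at 2986 ± 134 and 3245 ± 228 CPM (SD, n = 4). H2-D1 was at 984 ± 113 and 1146 ± 229 CPM, and P2ry12 at 4715 ± 197 and 4209 ± 448 CPM.

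**Figure D5:**
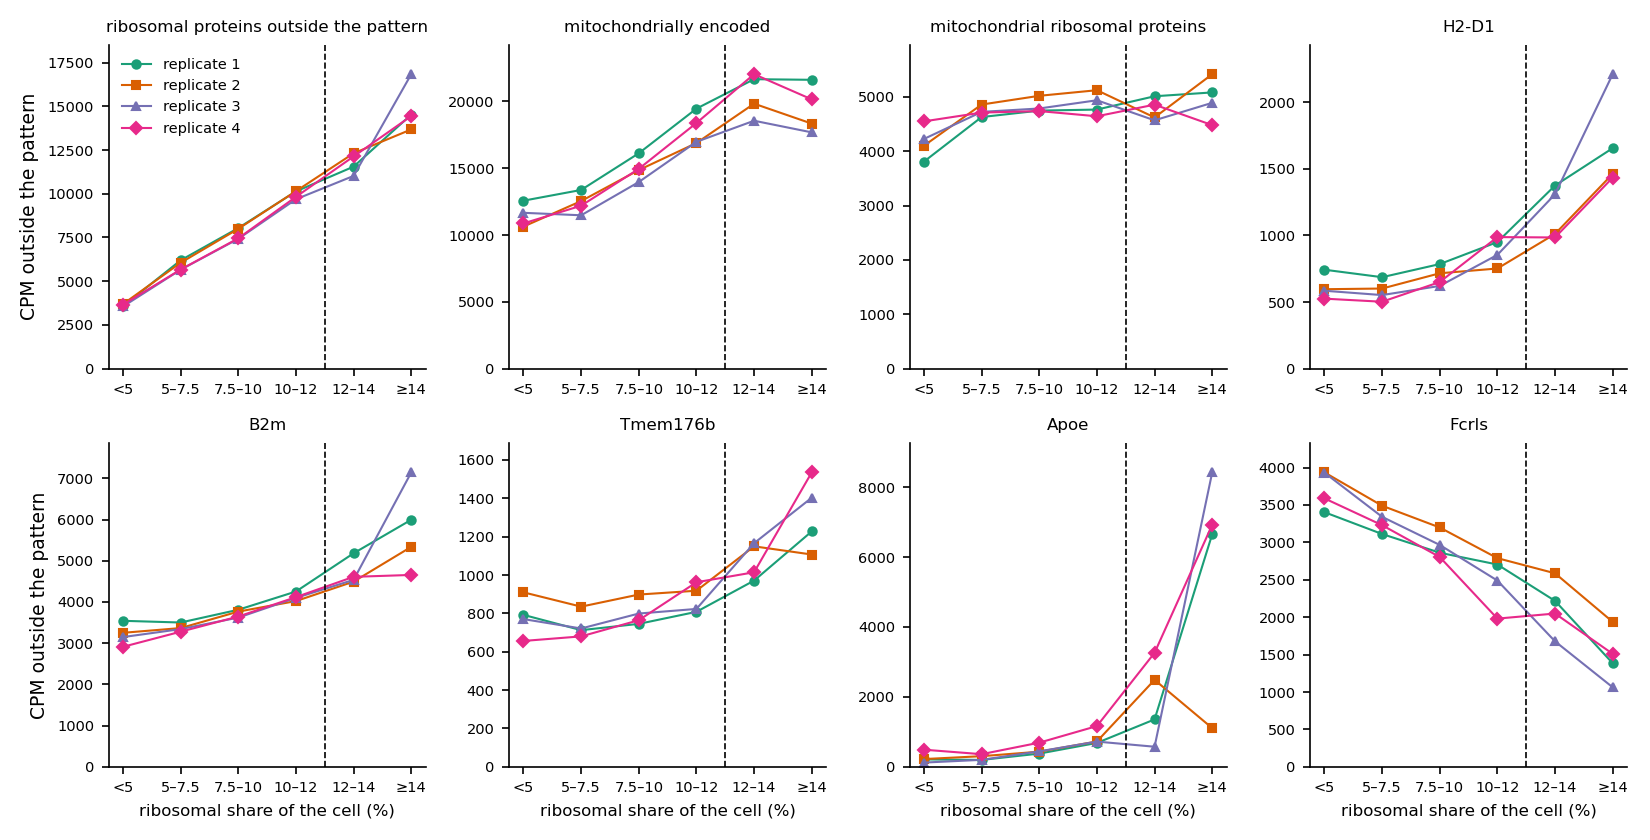
CPM outside the ribosomal pattern (y axes, from 0) in cells without markers, binned by ribosomal share (x axes, %), with 1 line per library and the threshold of 12% dashed. Ribosomal proteins outside the pattern rise nearly linearly to 14873 CPM in the highest bin, Fcrls declines, mitochondrial ribosomal proteins stay near 4730 to 4967 CPM from 5% upwards, and Apoe rises mainly above 12%.

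Of the genes that the rule counted, 109 symbols matched the pattern. Among them were 12 genes of other proteins, such as ribosomal S6 kinases, which carried 0.343% of the pattern's UMIs in members. Of the 89 pattern genes with at least 100 UMIs, 86 took a larger share of UMIs in members than in matched cells, with a median log2 ratio of 0.83; since the rule selected on their sum, this is a description only. Some tested genes share sequence with them and are uncertain for that reason. Of 8 annotated pseudogenes tested, 5 were higher with all members and 5 without the marker-bearing cells (among them Gm9493, at 1.23 ± 0.15 with all members), and which of their reads came from ribosomal genes was not tested.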

How the data were processed

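Microglia and other myeloid cells of 4 mice were sequenced with the 10x Genomics 3′ kit. Per the labels and the study's methods, the authors called cells and counted UMIs with Cell Ranger 2.2.0 against mm10 (GRCm38) with a filtered Ensembl annotation, and the deposited values are whole UMI counts for 28692 genes. Of 13138 barcodes, 13002 were kept, and no doublets were removed. Library pairs shared 6 to 21 barcodes. The libraries held 5867333 to 11275195 UMIs, and the summed UMIs per class that entered the test were 103242 to 355787. Intervals and floors cover counting error only.

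Members were matched without replacement to comparison cells, which were also held to the class II limit. Genes with a mean of at least 10 UMIs over the 8 sums were tested with edgeR 4.0.16 (TMM factors, quasi-likelihood test, Benjamini-Hochberg adjustment) in R 4.3.3, leaving out the genes of the rule. A gene rare in the matched cells could pass this filter only through the members, as Emp3, Klf2, Naaa and Fos did. The library was a block in the main fit because both classes come from the same mouse. DESeq2 1.42.0, other filters, matchings and thresholds were alternatives, and the script was tested on simulated data. Coordinates are those of GENCODE M21. The members, lists and tests were chosen with earlier results of these data known. Named were the given markers, the ribosomal proteins outside the pattern (1 of them is not reported here and is left out of their counts, medians and sums), the 12 largest changes in each direction with at least 30 UMIs on average and the same sign in 4 of 4 libraries, up to 4 genes per list and 8 fixed genes; other genes were named to show the range of a list, after their values had been seen. Marker-bearing cells had at least 2 UMIs of the monocyte or border-associated macrophage lists without Stab1, which microglia express.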

Additional observations from a re-analysis of the deposited data

Results flagged for a closer look

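Of 91 values per library examined, 3 set 1 library apart by Dixon's range test for 4 samples, a test that chance alone passes in about 1 of 20 groups. The share of ribosome-rich cells was 5.54% in replicate 1 and 1.86% to 2.25% in the other three (Dixon ratio 0.895). The ratio was 0.858 with the marker-bearing cells left out, but it fell below the critical value in 4 of the 7 other settings. It was 0.716 with a threshold of 14%, 0.697 with the other ribosomal proteins added to the pattern, 0.779 with no class II limit and 0.522 with cells of other-type UMIs left out, and replicate 1 had the highest share in each.

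The log2 ratio of members to matched cells for Rhob, a small GTPase gene of the exAM list, was 0.08 in replicate 2 and -0.45 to -0.51 in the other three (Dixon ratio 0.9). For Snrpg, a core protein of the spliceosome that was named after its values had been seen, the log2 ratio was 0.69 in replicate 3 and 0.86 to 0.87 elsewhere (Dixon ratio 0.943), and it was above 0 in 4 of 4 libraries.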

How the results depend on the processing

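The numbers of higher and lower genes were 175 and 71 with all members. They moved to 59 and 6 with DESeq2, and to 280 and 134 with no depth matching, where 9793 genes were tested in place of 3309. When cells with at least 2 UMIs of any other-type list were left out they were 22 and 4. Only 306 genes could be tested there, because microglia express some of those genes. The number of lower genes was 123 with no scaling beyond the total, 35 with no filter (12242 tested) and 44 with at least 1000 genes per cell (2744 tested). With a member threshold of 14%, 148 genes were higher and 112 lower of only 806 tested. Counts from settings with unlike numbers of tested genes cannot be compared directly. With no replicate block, that is without pairing the classes by library, 122 genes were higher and 29 lower. Leaving out 1 replicate gave 111 to 156 higher and 34 to 39 lower genes, the fewest higher without replicate 1.

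Leaving out the marker-bearing cells, chosen after seeing the data, gave 91 and 27 of 3040 genes tested. With DESeq2 it gave 52 and 6, and with 3 comparison cells per member 129 and 30 of 5137 tested. Without replicates 1 to 4 in turn, 62, 87, 75 and 78 genes were higher and 12, 18, 16 and 20 lower. The cause of these shifts was not tested. The mean share of ribosome-rich cells, 2.93%, moved to 5.52% with the other ribosomal proteins added to the pattern and to 0.82% with a threshold of 14%, and was 2.06% to 3.28% without 1 replicate. H2-D1, Fau, Apoe, P2ry12 and Fcrls kept their direction and their call in all 27 alternatives. The log2 fold changes of Eif1 (-0.050) and Myl6 (-0.16) turned negative when cells with other-type UMIs were left out, and that of Neat1 (-0.018) without replicate 3 and the marker-bearing cells. Depth limits the low genes: Emp3 had 126 UMIs in all members.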
